A study of Mus musculus with 6 samples.

Results

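Th1 programme genes are the genes by which T cells enter and carry out the type 1 helper programme. They include the transcription factors Tbx21 (T-bet), Eomes and Runx3, the homeodomain protein Hopx and the cytokine Ifng. With them are the Ifng receptor chains Ifngr1 and Ifngr2, the IL-12 receptor chains Il12rb1 and Il12rb2, and the signal transducer Stat4. These 10 symbols were matched to the gene column of the deposited table, and 9 of them have a row among its 15106 genes. Eomes has no row there and was not analysed here. The 6 libraries came from skin of mice that carry a GFP reporter of FOXP3 (genotype FOXP3-GFP) and were 6 weeks old, of which 4 hold regulatory T cells (Tregs) and 2 hold effector T cells (Teffs), both taken by cell sorting. No treatment is named, and every library shares the reporter, the tissue and the age. The sources used here give neither the surface markers of the sort nor whether libraries of the same group were separate animals, so p-values measure only the spread between these libraries, which may be technical.

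In the Th1 pathway, IL-12 binds a receptor of the Il12rb1 and Il12rb2 chains and activates STAT4, and STAT4 and T-bet then drive transcription of Ifng with the help of RUNX3. Interferon-gamma signals back through a receptor of the Ifngr1 and Ifngr2 chains to the kinases JAK1 and JAK2, and this signal raises T-bet further. In skin, Th1 cells and CD8 T cells are known sources of interferon-gamma, and Tregs can carry T-bet as well. Hopx, a small homeodomain protein, is known both in Th1 effector cells and in peripherally induced Tregs.

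Counts in genes came to 4902126 to 7468778 per library, so that 3 counts correspond to 0.397 to 0.581 counts scaled to library size (CPM, on library sizes scaled by TMM). Foxp3, the gene behind the sort, was at 103 to 233 CPM in Tregs and 7.17 to 11.3 CPM in Teffs. The 5 T cell markers with a row, Cd3d, Cd3e, Cd3g, Cd4 and Lck, had counts in every library and together reached 3101 to 5705 CPM in Treg libraries, against 6360 and 6886 CPM in Teffs, with Cd4 at 292 to 626 CPM against 733 and 574 CPM. Sums over marker lists of other cell types differed between libraries. The 2 CD8 markers, Cd8a and Cd8b1, summed to 142 and 93.6 CPM in Teff libraries 1 and 2 and to 0.180, 12.8, 11.9 and 65.6 CPM in Treg libraries 1 to 4. The 3 NK cell markers with a row summed to 8.61 and 9.11 CPM in Teffs. They came to 24.0 CPM in Treg 4, all of it Klrb1c, and to 0 in the other Treg libraries. The gamma-delta T cell markers with a row were Cd163l1, Blk and Sox13. These 3 summed to 21.2 and 21.7 CPM in Teffs and to 0 in every Treg library. Trdc, Tcrg-C1, Trgc1 and Trgc2 of that list have no row. Fibroblast markers reached 1994 CPM and keratinocyte markers 642 CPM in Treg 3, against at most 8.30 and 0.800 CPM in the other Treg libraries and 176 and 107 CPM in Teff 1. Macrophage markers reached 543 CPM in Treg 4, against at most 279 CPM elsewhere. Dendritic or Langerhans cell markers reached 115 CPM in Treg 4, against at most 34.4 CPM elsewhere. The T cell, CD8 and gamma-delta T cell sums above did not overlap between the groups. Nor did Treg markers (6079 to 9398 CPM in Tregs, 213 and 334 CPM in Teffs). The same held for innate lymphoid cells (491 to 567 CPM in Tregs, 39.9 and 62.8 CPM in Teffs), whose list holds Il1rl1 and Areg. Tissue Tregs also express these. Endothelial markers (16.1 to 66.1 CPM in Tregs, against 85.0 and 121 CPM) did not overlap either. Pecam1 alone was at 16.1 to 58.2 CPM in Tregs and 82.3 and 121 CPM in Teffs. Cdh5 was at 7.89 CPM in Treg 3, at 2.65 CPM in Teff 1 and at 0 elsewhere. B cell markers were also apart (0 to 3.68 CPM in Tregs, 10.9 and 11.3 CPM in Teffs). In bulk libraries, fewer cells of a type and less RNA per cell cannot be told apart.

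Promoters of Ifng and Il12rb2, the members with the largest negative fold changes, are shown to place the letters bound by the factors of this programme. RefSeq's promoter table (GRCm38.p6, 250 bases before to 50 after the start) held 9 of the 10 members, with 12 windows. Capitals mark every match, on either strand, to GTGTGA (the T-box core, for T-bet and Eomes), TGTGGT (for RUNX factors) or TTCNNNGAA (for STAT factors). The Ifng window is chr10:118440796-118441095 on the plus strand and the Il12rb2 window is chr6:67376139-67376438 on the minus strand.
Ifng: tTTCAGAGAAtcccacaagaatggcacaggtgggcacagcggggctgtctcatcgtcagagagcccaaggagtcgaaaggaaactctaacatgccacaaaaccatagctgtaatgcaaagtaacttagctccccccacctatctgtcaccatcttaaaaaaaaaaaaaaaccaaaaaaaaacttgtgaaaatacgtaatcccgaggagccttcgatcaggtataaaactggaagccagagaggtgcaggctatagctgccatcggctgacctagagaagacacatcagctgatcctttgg
Il12rb2: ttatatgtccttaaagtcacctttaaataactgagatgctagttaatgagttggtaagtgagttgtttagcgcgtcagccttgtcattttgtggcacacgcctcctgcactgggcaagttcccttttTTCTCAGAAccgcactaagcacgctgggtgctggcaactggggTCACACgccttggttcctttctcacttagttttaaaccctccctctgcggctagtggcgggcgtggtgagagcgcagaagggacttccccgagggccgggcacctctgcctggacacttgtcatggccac

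The Ifng window held 1 match, TTCAGAGAA, which begins 249 bases before the start. The Il12rb2 window held TTCTCAGAA, 123 bases before the start, and the T-box core as TCACAC, 80 bases before it. Among the members' 12 windows the T-box core was found in 1, the RUNX letters in 1 (of Runx3, with 2 matches) and the STAT letters in 2. Over all 32851 promoter windows of the same length these letters were found in 14.5%, 16.8% and 8.3%. None of the 3 motifs was found in the Tbx21 window or in either Hopx window. A match is a description of letters and shows no binding.

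Set against Teffs, the Th1 programme was uneven in skin Tregs. The cytokine Ifng and its factor Tbx21 were lower in every Treg library than in either Teff library, Hopx was higher in every Treg library, and the groups overlapped for the other 6 members. None of the 9 members passed edgeR's quasi-likelihood test at an adjusted p under 0.05, against 0.0425% of all 11775 genes tested. At an unadjusted p under 0.05 there was 1 member, Ifng, against 4.73% of all genes. All Treg libraries lay below both Teff libraries for 2 of 9 members (9.49% of all genes) and above both for 1 of 9 (5.51% of all genes). The fitted log2 fold change, Treg minus Teff, was negative for 7 and positive for 2 members, against a negative share of 46.6% over all genes. Its median was -0.60 over the members and 0.07 over all genes.

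**Figure D1:**
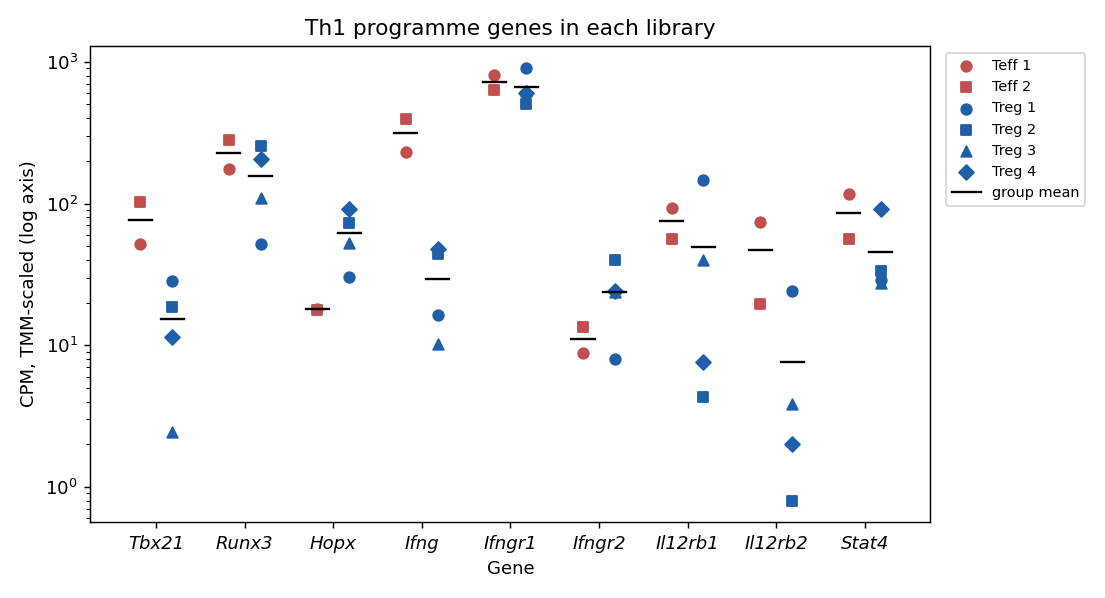
Level of each Th1 programme gene in CPM (log axis) in the 2 Teff libraries (red) and the 4 Treg libraries (blue), with 1 symbol per replicate number and a bar at the group mean. Ifng and Tbx21 lie below both Teff libraries in every Treg library, Hopx lies above both, and the Il12rb1 and Il12rb2 points of Tregs spread over more than a factor of 10.

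Among the transcription factors, Tbx21 encodes T-bet, the T-box factor that defines Th1 cells. Its level was 28.5, 18.7, 2.45 and 11.4 CPM in Treg libraries 1 to 4 and 51.5 and 103 CPM in Teff libraries 1 and 2. The groups did not overlap, but Treg 1 and Teff 1 came close, and Treg libraries differed from each other by up to 11.6-fold. Tregs averaged 15.3 ± 11.05 CPM (SD, n = 4) and Teffs 77.1 ± 36.2 CPM (SD, n = 2). This is a log2 fold change of -2.33 ± 1.02 (SE) that did not pass (edgeR adjusted p = 1.0, unadjusted p = 0.0523). Tbx21 counts were 158, 117, 14 and 80 in the Treg libraries, so T-bet transcripts were found in each of them, with the fewest in Treg 3. The gene lies on chromosome 11 from 97098071 to 97115331 (GRCm38, minus strand), and no exon of another annotated gene overlaps its exons.

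Runx3 encodes a Runt-domain factor that works with T-bet at Ifng and is also needed for the CD8 lineage. It was at 51.6, 257, 109 and 206 CPM in Treg libraries 1 to 4 and at 175 and 280 CPM in Teff libraries 1 and 2. Treg 2 and Treg 4 lay between both Teff libraries, and Treg 1 and Treg 3 lay below them. The log2 fold change was -0.55 ± 0.62 (SE), which is within its error. Among Tbx21, Runx3 and Hopx, Runx3 (chromosome 4, 135120652 to 135177990) was the most evenly shared, by the size of its fold change.

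Hopx went the other way from Tbx21 and Runx3. Its level was 30.1, 72.3, 52.4 and 92.0 CPM in Treg libraries 1 to 4, and 18 and 17.8 CPM in the Teff libraries, which hardly differed from each other. Every Treg library was higher than both Teff libraries, and the means of 61.7 ± 26.6 CPM (SD, n = 4) and 17.9 ± 0.123 CPM (SD, n = 2) stood 3.44-fold apart. The log2 fold change of 1.78 ± 0.81 (SE) did not pass (edgeR adjusted p = 1.0, unadjusted p = 0.0587) and stayed between 1.38 and 2.01 under all alternatives. Hopx is also a gene of differentiating keratinocytes. Keratinocyte markers were at 642 CPM in Treg 3 and at no more than 0.800 CPM in Treg 1, Treg 2 and Treg 4. Without Treg 3, Hopx had a log2 fold change of 1.86, and the part of keratinocyte RNA was not tested. Exons of the antisense gene Hopxos overlap 27.2% of the exonic bases of Hopx (chromosome 5, 77086988 to 77115121), and the sources used here do not say how reads over them were counted.

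**Figure D2:**
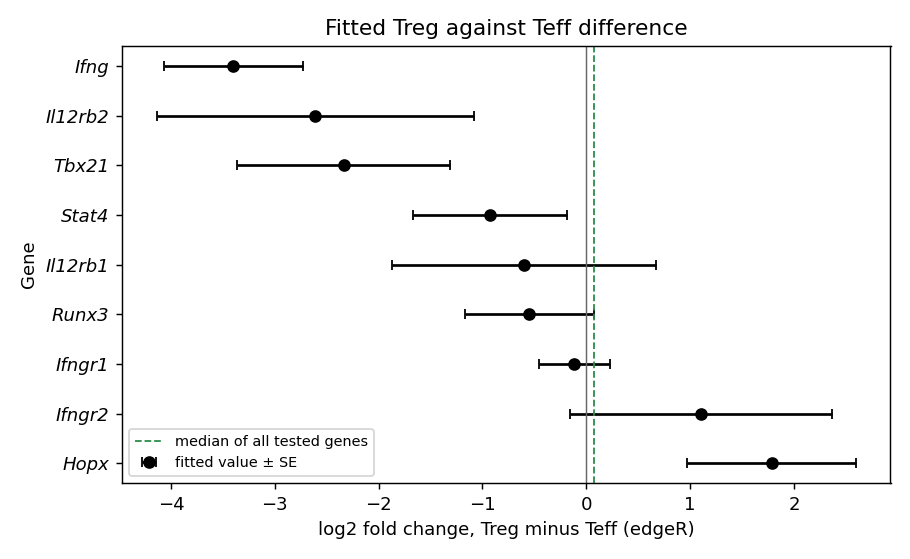
Fitted log2 fold change of each member, Treg minus Teff, with its standard error as the bar, sorted by size. The dashed line is the median over all tested genes, 0.07, and the values run from -3.40 for Ifng to 1.78 for Hopx.

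Ifng, the cytokine at the end of this programme, had the largest difference of the 9 members. It was at 16.2, 43.8, 10.2 and 47.9 CPM in Treg libraries 1 to 4 and at 232 and 393 CPM in Teff libraries 1 and 2. The highest Treg library was far below the lower Teff library, and the group means stood 10.6-fold apart. Interferon-gamma transcripts were still counted in every Treg library, with 90, 274, 58 and 336 counts against 1755 and 2027 in Teffs. The log2 fold change was -3.40 ± 0.67 (SE), with an adjusted p of 0.283 in edgeR's quasi-likelihood test over all genes. The authors' deposited table gives Ifng a log2 fold change of -3.45 and an FDR of 0.00332 and no other member an FDR under 0.05, where 0.285% of its genes are under that threshold. DESeq2 also called Ifng and no other member (adjusted p = 0.000740), in a test that called 1.55% of all genes.

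The size of the Ifng difference depended little on single libraries: it lay between -3.74 and -2.99 when each library was left out in turn and was -3.39 without Treg 3 and Treg 4 together. CD8 markers moved with it in part, at 142 and 93.6 CPM in Teffs and 0.180 to 65.6 CPM in Tregs, and gamma-delta T cell markers were at 0 in every Treg library. Of the CD8 pair, Cd8a was at 0 in Treg 1, Treg 2 and Treg 3, and Cd8b1 was at 0.180, 12.8 and 11.9 CPM there. In these libraries Ifng was at 10.2 to 43.8 CPM. The part of CD8 or gamma-delta T cells in the Teff level of Ifng was not tested. Ifng lies on chromosome 10 from 118441046 to 118445892, and 25.9% of its exonic bases are shared with an annotated gene of the same strand.

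Counts of Ifng per count of Tbx21 within a library, which do not depend on library scaling, were 4.51 and 3.82 in Teff 1 and Teff 2. They were 0.570 in Treg 1, 2.34 in Treg 2, 4.14 in Treg 3 and 4.20 in Treg 4. Treg 3 and Treg 4 thus lay between both Teff libraries in this ratio, although Treg 3 was the lowest of all libraries in each gene, and Treg 1 stood apart with the most Tbx21 of the Treg libraries and little Ifng.

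The receptor for interferon-gamma did not follow its ligand. Ifngr1, the chain that binds the ligand, was at 911, 507, 621 and 606 CPM in Treg libraries 1 to 4 and at 802 and 630 CPM in Teff libraries 1 and 2. The groups overlapped, the means of 661 ± 174 CPM (SD, n = 4) and 716 ± 122 CPM (SD, n = 2) differed by less than either SD, and the log2 fold change was -0.11 ± 0.34 (SE). Ifngr1 was also the steadiest member, with 1.8-fold between the highest and the lowest Treg library. Ifngr2, the signalling chain, was far lower and was at 7.94, 39.8, 23.7 and 24.3 CPM in Treg libraries 1 to 4 and at 8.87 and 13.4 CPM in Teffs. Treg 2, Treg 3 and Treg 4 lay above both Teff libraries and Treg 1 below both, and the log2 fold change of 1.10 ± 1.26 (SE) was smaller than its error.

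The balance of both chains within a library was 0.0111 and 0.0212 counts of Ifngr2 per count of Ifngr1 in Teff 1 and Teff 2. It was 0.00871 in Treg 1 and 0.0786, 0.0381 and 0.0400 in Treg 2 to Treg 4. In 3 of 4 Treg libraries the signalling chain thus made up a larger share than in either Teff library, and Treg 1 had the smallest share of all. Ifngr1 lies on chromosome 10 from 19591949 to 19610229 and Ifngr2 on chromosome 16 from 91547072 to 91565623, and no exon of another annotated gene overlaps either.

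The IL-12 receptor chains varied widely among Tregs, by 33.8-fold for Il12rb1 and 30.0-fold for Il12rb2, while the group means of Tregs and Teffs stood 1.51-fold and 6.12-fold apart. Il12rb1, the chain shared with the IL-23 receptor, was at 146, 4.32, 40.0 and 7.56 CPM in Treg libraries 1 to 4 and at 93.5 and 56.2 CPM in Teff libraries 1 and 2. Treg 1 was the highest of all 6 libraries and Treg 2 the lowest. The log2 fold change of -0.60 ± 1.27 (SE) was smaller than its error and depended on single libraries, from -2.11 without Treg 1 to -0.19 without Teff 1. It was 0.021, and so of the other sign, without Treg 3 and Treg 4 together.

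Il12rb2, the chain that recruits STAT4 and marks cells able to answer IL-12, was at 24.0, 0.800, 3.86 and 2.0 CPM in Treg libraries 1 to 4 and at 74.4 and 19.4 CPM in Teffs. Treg 1 again stood above the other Treg libraries and lay between both Teff libraries, while Treg 2, Treg 3 and Treg 4 lay below both. The log2 fold change was -2.61 ± 1.53 (SE) and did not pass (edgeR adjusted p = 1.0, unadjusted p = 0.126). It was -4.39 without Treg 1 and -1.34 without Teff 1. The lowest Treg value rests on 5 counts, in Treg 2. Serbp1, an antisense gene whose exons overlap 40.04% of the exonic bases of Il12rb2 (chromosome 6, 67291318 to 67376188), was at 156 to 216 CPM in every library, and the part of its reads in the Il12rb2 counts was not tested.

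Within a library there were 0.796 and 0.345 counts of Il12rb2 per count of Il12rb1 in Teff 1 and Teff 2, and 0.164, 0.185, 0.0965 and 0.264 in Treg 1 to Treg 4. All 4 Treg libraries had a lower ratio than both Teff libraries, although their levels of each chain differed widely, and Treg 1, with ample Il12rb1, was no exception. The Treg 2 ratio rests on 5 counts over 27, and that of Treg 4 on 14 over 53. In Teff 2, the nearer Teff library, there were 100 over 290. Whether counting error covers these gaps was not tested. The ratios of Ifngr2 to Ifngr1 and of Ifng to Tbx21 overlapped between the groups. How often other gene pairs separate was not computed, and the Serbp1 overlap limits the Il12rb2 counts here too. With 4 libraries against 2, an exact two-sided permutation test of such a ratio cannot go below p = 0.0667, so none was read from it.

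Stat4, the transducer that carries the IL-12 signal to the nucleus, was at 29.0, 33.4, 27.5 and 91.6 CPM in Treg libraries 1 to 4 and at 116 and 56.2 CPM in Teff libraries 1 and 2. Treg 1, Treg 2 and Treg 3 lay close together below both Teff libraries, and Treg 4 lay between these. The log2 fold change of -0.93 ± 0.74 (SE) did not pass. It was -1.52 without Treg 4 and -0.32 without Teff 1. Treg 4 was also the Treg library with the most CD8 markers (65.6 CPM) and the sole one with a count of an NK marker. This was Klrb1c (24.0 CPM), while Klre1 and Ncr1 were at 0 there. Treg 4 also had the most dendritic or Langerhans cell markers (115 CPM, against 19.5 to 34.4 CPM elsewhere) and the most macrophage markers (543 CPM). The part of CD8, NK, dendritic or macrophage cells in the Stat4 level of Treg 4 was not tested. A same-strand annotated gene overlaps 26.7% of the exonic bases of Stat4 (chromosome 1, 51987148 to 52107189).

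**Figure D3:**
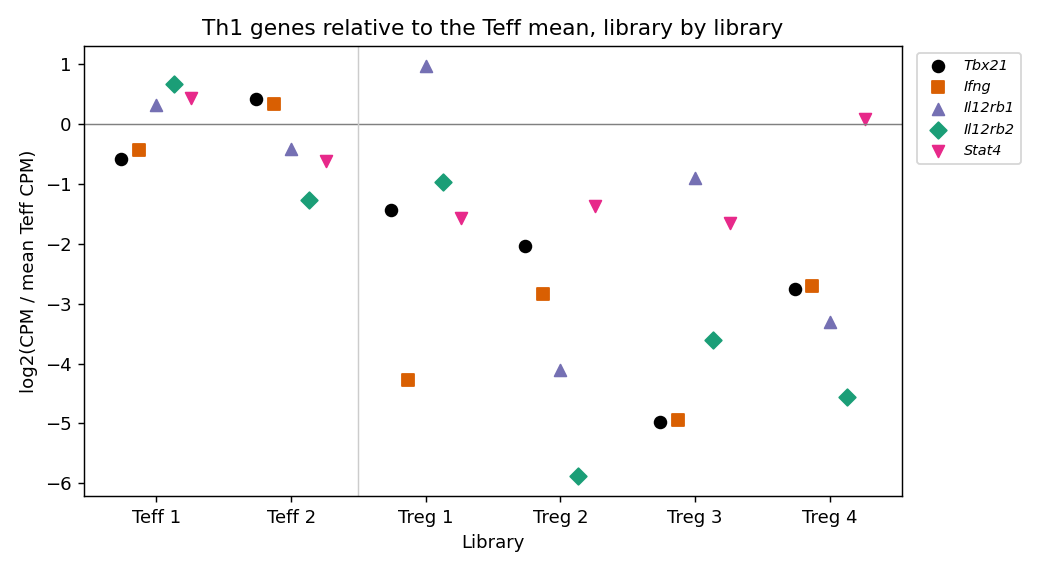
Level of Tbx21, Ifng, Il12rb1, Il12rb2 and Stat4 in each library as log2 of its CPM over the mean Teff CPM of the same gene, with 1 symbol per gene. The gene closest to the Teff level differs by library: Il12rb1 stands above it in Treg 1 (146 CPM against a Teff mean of 74.8 CPM), and Stat4 is nearest in Treg 4 (91.6 CPM against 86.4 CPM).

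No Treg library was therefore low or high in the whole programme. Treg 1 was the highest Treg library for Tbx21, Il12rb1, Il12rb2 and Ifngr1 and the lowest for Runx3, Ifngr2 and Hopx. Treg 3 was the lowest for Tbx21, Ifng and Stat4. Treg 4 was the highest for Ifng, Stat4 and Hopx, and Treg 2 was the highest for Runx3 and Ifngr2 and the lowest for Ifngr1, Il12rb1 and Il12rb2. The median SD of log2(CPM + 1) among Tregs was 1.03 over the 9 members, against 1.20 over all tested genes. These medians are not matched for level. All 9 members, but only 8989 genes, passed a filter of a mean of at least 10 CPM.

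To compare the members with each other, CPM were divided by the exonic length of each gene in kilobases. In Teffs, Ifngr1 (251 CPM per kb) and Ifng (241) led, followed by Runx3 (45.5), Tbx21 (31.0), Stat4 (22.3), Il12rb1 (18.2), Il12rb2 (12.4), Hopx (11.8) and Ifngr2 (2.95). In Tregs the order was Ifngr1 (232 CPM per kb), Hopx (40.7), Runx3 (31.1), Ifng (22.8), Il12rb1 (12.05), Stat4 (11.7), Ifngr2 (6.35), Tbx21 (6.14) and Il12rb2 (2.02). Ifngr1 led in both, Hopx ranked 2 in Tregs and 8 in Teffs, and Tbx21 ranked 4 in Teffs and 8 in Tregs. Lengths were not corrected for exons of other genes that overlap Ifng, Il12rb2, Stat4 and Hopx, which limits these ranks. Neighbours in these orders overlapped in their library values, except Ifng and Runx3 and also Hopx and Ifngr2 in Teffs, and Ifngr1 and Hopx in Tregs.

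By Pearson correlation of log2(CPM + 1) over the 6 libraries, the genes most like Ifng among 8589 candidates were Nlrc5, an activator of MHC class I genes, Adcy7, an adenylate cyclase, and Zc3h10 (r of 0.984, 0.981 and 0.980). Nlrc5 was at 222 to 360 CPM in Tregs and at 452 and 542 CPM in Teffs. The genes most like Tbx21 were Ms4a4b, a membrane protein of T cells, Klrk1, which encodes the activating receptor NKG2D, and Cabin1, a calcineurin inhibitor (r of 0.984, 0.981 and 0.979). Klrk1 was at 20.7, 9.28, 0 and 4.85 CPM in Treg libraries 1 to 4 and at 126 and 141 CPM in Teffs, and so ranked the Treg libraries as Tbx21 did. With 6 points that share the split into Tregs and Teffs, 20 genes had an r over 0.95 with Ifng and 15 with Tbx21.

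Genes that act with IL-12, in signalling through the IL-12 and IL-18 receptor families, lay on both sides of 0. Of 10 listed and tested, 0 passed in either direction in edgeR or DESeq2, with 1 higher and 1 lower at an unadjusted edgeR p under 0.05 (4.73% of all genes). Of the 10, 6 lay below and 4 above 0 in log2 fold change, and the median was -0.14, against 0.07 over all genes. Without Treg 3 the list median was 0.074. Il18r1, the ligand-binding chain of the IL-18 receptor, was at 261, 72.8, 236 and 245 CPM in Treg libraries 1 to 4 and at 574 and 534 CPM in Teffs, with all Treg libraries lower (log2 fold change -1.44 ± 0.50 (SE), edgeR adjusted p = 0.721). Il6st, the receptor chain gp130, was higher in every Treg library, at 53.9, 281, 126 and 122 CPM against 33.9 and 6.20 CPM (log2 fold change 2.86 ± 0.96 (SE), edgeR adjusted p = 0.721). Tyk2, a kinase bound to Il12rb1, overlapped between the groups at 173 to 481 CPM in Tregs and 174 and 154 CPM in Teffs.

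Genes that transmit or answer interferon-gamma lay on the other side from Ifng itself. Of 14 tested, 0 passed edgeR in either direction, with 3 higher and 0 lower at an unadjusted p under 0.05 (4.73% of all genes). In log2 fold change 11 lay above and 3 below 0, against 46.6% of all genes below 0. The median was 0.51, against 0.07 over all genes. Iigp1, an interferon-inducible GTPase, was at 350, 167, 110 and 282 CPM in Treg libraries 1 to 4 and at 36.1 and 33.9 CPM in Teffs, with every Treg library higher (log2 fold change 2.70 ± 0.60 (SE), edgeR adjusted p = 0.372). Gbp7, a guanylate-binding protein of the same response, was at 683 to 1298 CPM in Tregs and 335 and 308 CPM in Teffs (log2 fold change 1.49 ± 0.38 (SE), edgeR adjusted p = 0.572). Igtp, another GTPase of this family, was at 366 to 879 CPM in Tregs against 320 and 362 CPM, where the lowest Treg library nearly touched the higher Teff library. DESeq2, which called 1.55% of all genes, called Iigp1 and Gbp7 higher in Tregs. These genes also answer type I interferon, so the list is not specific to interferon-gamma.

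Type 1 effector genes near T-bet were the list with the lowest median, -1.71, with 14 negative and 7 positive log2 fold changes among 21 tested of 22. Of these, Klrg1 rose and Ctsw fell in Tregs, 2 calls where 0.0425% of all genes were called. At an unadjusted edgeR p under 0.05, 4 were higher and 10 lower (4.73% of all genes). The 10 include Gzma, Csf2 and Xcl1, without a Treg count, and Il2, with 3 counts in Treg 1 alone. Such genes passed the filter through the Teff libraries alone, so they could only come out lower. Klrg1, an inhibitory receptor of differentiated T cells, was at 303 to 626 CPM in Tregs and 12.6 and 10.5 CPM in Teffs (edgeR adjusted p = 0.0378). Ctsw, a cathepsin of cytotoxic cells, was at 133 to 225 CPM in Tregs and 1159 and 1713 CPM in Teffs (edgeR adjusted p = 0.0460). Neither call was kept when any of the 6 libraries was left out, each of which left 0 calls in this list, while the median of the list stayed between -2.02 and -1.39. Nkg7, a granule protein of cytotoxic cells, was at 183, 177, 88.7 and 237 CPM in Treg libraries 1 to 4 and at 1300.0 and 1509 CPM in Teffs (log2 fold change -3.03 ± 0.40 (SE), edgeR adjusted p = 0.0890). With Gzma, Csf2 and Xcl1 set to their bound of 3 counts over the Treg group, the median of the list was also -1.71. It could not change, because these genes stay below the median at that bound. The list median was -0.88 among genes with a mean of at least 10 CPM. CD8 markers (93.6 to 142 CPM in Teffs, 0.180 to 65.6 CPM in Tregs) and gamma-delta T cell markers (21.2 and 21.7 CPM in Teffs, 0 in Tregs) moved with the lower genes of this list, and their part was not tested.

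**Figure D4:**
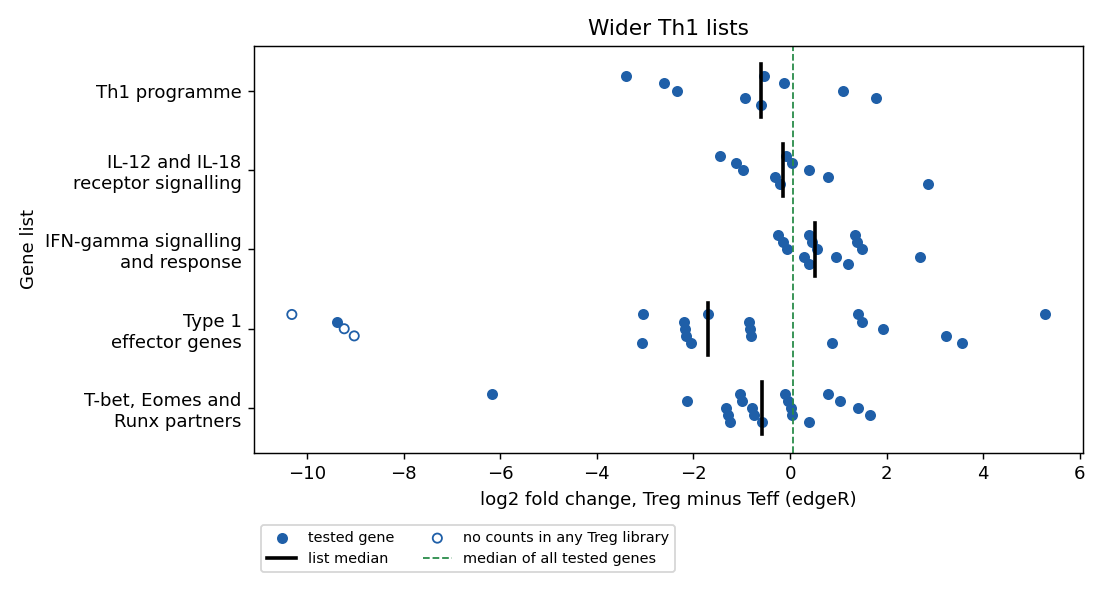
Fitted log2 fold change, Treg minus Teff, of each tested gene (points) in the Th1 programme and in 4 wider lists, with a bar at each list's median and a dashed line at the median over all genes, 0.07. Open points mark genes without a count in Tregs, and their fitted values depend on the prior count. The interferon-gamma response list lies mostly to the right (median 0.51) and the type 1 effector list mostly to the left (median -1.71).

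Factors that work with or against T-bet, Eomes and the Runx proteins had 0 calls in edgeR among 19 tested of 20, with 2 higher and 3 lower at an unadjusted p under 0.05 (4.73% of all genes). Their log2 fold changes were negative for 12 and positive for 7 (46.6% negative over all genes), with a median of -0.58. Without Teff 1 this median was 0.035, where that over all genes was 0.23. With the replicate block it was -1.48, where that over all genes was -0.64. Tcf7, the factor TCF-1, was at 0.361, 0.160, 11.2 and 13.7 CPM in Treg libraries 1 to 4 and at 452 and 468 CPM in Teffs (log2 fold change -6.17 ± 1.39 (SE), edgeR adjusted p = 0.378). DESeq2 called Tcf7, as did edgeR with the replicate block, in which Treg 3 and Treg 4 drop out of the comparison. Id2, an inhibitor of E proteins that supports Th1 and CD8 effector cells, was at 783 to 1392 CPM in Tregs and 1925 and 1956 CPM in Teffs (edgeR adjusted p = 0.721). Batf, an AP-1 factor of effector Tregs, was higher in every Treg library at 133 to 352 CPM against 83.3 and 96.7 CPM (edgeR adjusted p = 0.746).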

How the data were processed

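The data were RNA-seq libraries of sorted skin T cells, for which, per the labels, cDNA was made with the SMARTer kit for very low input. The authors deposited 1 table of raw whole-number counts per gene, which also holds their own comparison as a log2 fold change with a p-value and FDR, per the file headers. The deposited fold change is positive where Tregs are higher. The submitters' processing notes name Bowtie2 2.1.0.0, HTSeq 0.6.1, CASAVA 1.8.2, TopHat2 2.0.12, build mm10 and SAMtools 0.1.19.0, with no role. The gene annotation, strand setting and test were not given in the sources used here.

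Counter rows that name no gene, 3 in number, took 88.0% to 90.2% of the column totals and were left out. Of 15106 genes, 11775 passed filterByExpr (smallest count 10) in edgeR 4.0.16 under R 4.3.3. Library sizes were scaled by TMM (factors 0.913 to 1.05). The quasi-likelihood F test compared Tregs with Teffs in all 6 libraries on group alone, with Benjamini-Hochberg adjustment over all tested genes and a threshold of 0.05, and was tested on simulated data. The standard error is the fold change over the square root of F. DESeq2 1.42.0 was an alternative test. Positions and exons are from GENCODE M21 (GRCm38).

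The members and lists were chosen with earlier results of these data known. Named genes were all 10 members, Foxp3, the 3 smallest p-values and any call in each wider list, and the 3 genes most correlated with Ifng and with Tbx21 (mean CPM of at least 10). Markers named beside a result came from fixed lists of cell types, and Serbp1 was added for its overlap. Floors cover counting error only.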

Additional observations from a re-analysis of the deposited data

Results flagged for a closer look

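Il12rb2 and Stat4 each had 1 Treg library far from the other 3. For Il12rb2 the gap from Treg 1 (24.0 CPM) to the next library (3.86 CPM) was 0.868 of the whole Treg range, above Dixon's 95% critical value for 4 samples. For Stat4 the gap from Treg 4 (91.6 CPM) to the next library (33.4 CPM) was 0.908 of the range. Chance marks about 1 in 20 groups of normally distributed values in this way, and 9 members were examined. The gaps were taken on CPM and not on a log scale, which was not tried.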

How the results depend on the processing

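All member directions held under every alternative run, with 2 exceptions: Ifngr1, which ran from -0.31 to 0.061 when each library was left out, was at 0.061 without Teff 1, and Il12rb1 was at 0.021 without Treg 3 and Treg 4 together, a choice made after seeing the data. No member passed under any of them except Ifng in DESeq2, so that 1 member was called there, at a log2 fold change of -3.39. The adjusted p of Ifng ranged from 0.000740 to 1.0 over all settings. The member median ran from -0.93 to -0.32 when each library was left out and was -1.38 with the replicate block, under which the median over all genes was -0.64. The 5 calls over all genes became 183 in DESeq2, 19 with no filter, 15 with the replicate block, 0 at an adjusted p under 0.01, 0 without Treg 3 and Treg 4 together, and 0 to 2 when each library was left out. Where 0 genes were called on leaving out 1 library or both of these, 186 to 1341 genes had an unadjusted p under 0.05. The 2 calls among type 1 effector genes became 8 in DESeq2, 1 with the replicate block, 0 without Treg 3 and Treg 4 together and 0 to 0 when each library was left out. DESeq2 called 2 interferon-gamma response genes and 1 regulator, and the replicate block called 1 regulator. The cause of these differences was not tested. The replicate numbers are shared by 2 libraries of each group alone and correlated at 0.0923 in their deviations, so they name samples and are no pairing known from the labels. Depth limits Il12rb2 most, which had 5 counts in Treg 2.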
